A study of Mus musculus with 68 samples.

Results

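Livers of mice taken 6 h after an injection of vehicle were compared with livers of untreated mice, to see which genes differ with no growth factor given. The comparison rests on 6 of the 68 libraries of a study of epidermal growth factor (Egf) in 4 organs, chosen by their labels: 3 liver libraries of the vehicle 6 h group and 3 of the untreated group, with all genes included. All mice were wild-type C57BL/6J females aged 10 weeks, kept on a light/dark cycle with food at all times. Vehicle mice received 50 to 60 µL of phosphate-buffered saline behind the eye (retro-orbitally) under isoflurane, and each organ was taken within 4 min and frozen. The untreated mice, 3 in all, were given no treatment per the labels. The labels do not give the clock time of any collection, so the injection, the anaesthesia, the hours that passed and the time of day cannot be told apart in this comparison. The labels do not tie the vehicle libraries to named animals, so a p-value measures the spread between these libraries, which may be partly technical.

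The liver has its own circadian clock. The proteins Arntl (also called Bmal1) and Clock, or Npas2 in place of Clock, pair up and switch on the Per and Cry genes, whose products then repress that pair. The nuclear receptors Nr1d1 and Nr1d2 repress Arntl, Rora activates it, and the bZIP factors Dbp, Tef and Hlf and their opponent Nfil3 pass the rhythm to genes of metabolism, detoxification and cell division.

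The vehicle 6 h libraries held 18180041, 15907969 and 18218949 counted reads, and the untreated libraries held 18755618, 17333162 and 19165882. Levels are given in CPM, read counts scaled to a common library size, which compares libraries for 1 gene but not genes with each other, since CPM takes no account of length. The 16 hepatocyte markers summed to between 130000 and 154000 CPM in vehicle 6 h and between 142000 and 154000 CPM in untreated livers, so the tissue label held. Mitochondrially encoded genes took 1.93% to 3.80% of reads in vehicle 6 h and 2.14% to 3.27% in untreated livers, and 18S ribosomal RNA took 2.24% to 2.98% and 2.74% to 3.21%. In the same fit, 1 library stood apart, a vehicle 2 h library with 0.0126% of reads on 18S ribosomal RNA, and without it 89 genes were called in place of 91.

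Of 13592 genes tested, 91 differed between vehicle 6 h and untreated livers at an adjusted p under 0.05, which is 0.67% of the genes tested. In vehicle 6 h, 49 genes were higher (0.361%) and 42 were lower (0.309%). The rises ran from 0.65 to 3.60 on the log2 scale with a median of 1.26, and 33 of them more than doubled the level. The median fall was -1.44, and 32 genes fell to less than 50% of the untreated level. In all 91 called genes the 3 vehicle 6 h values lay on one side of the 3 untreated values, which was so for 18.3% of all genes tested. The median change over all genes tested was -0.01. The number of calls rested on few libraries: leaving out vehicle 6 h replicate 1, 2 or 3 gave 29, 33 and 107 calls, and leaving out untreated replicate 1, 2 or 3 gave 59, 35 and 44. It was 285 with DESeq2, 734 with limma voom and 28 when the fit held only the 6 libraries compared. Of the 39 called genes chosen by the naming rule, 12 passed with each of the 6 libraries left out in turn, and none changed direction in any setting run. As their groups did not overlap, leaving out 1 library could hardly turn a direction.

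**Figure D1:**
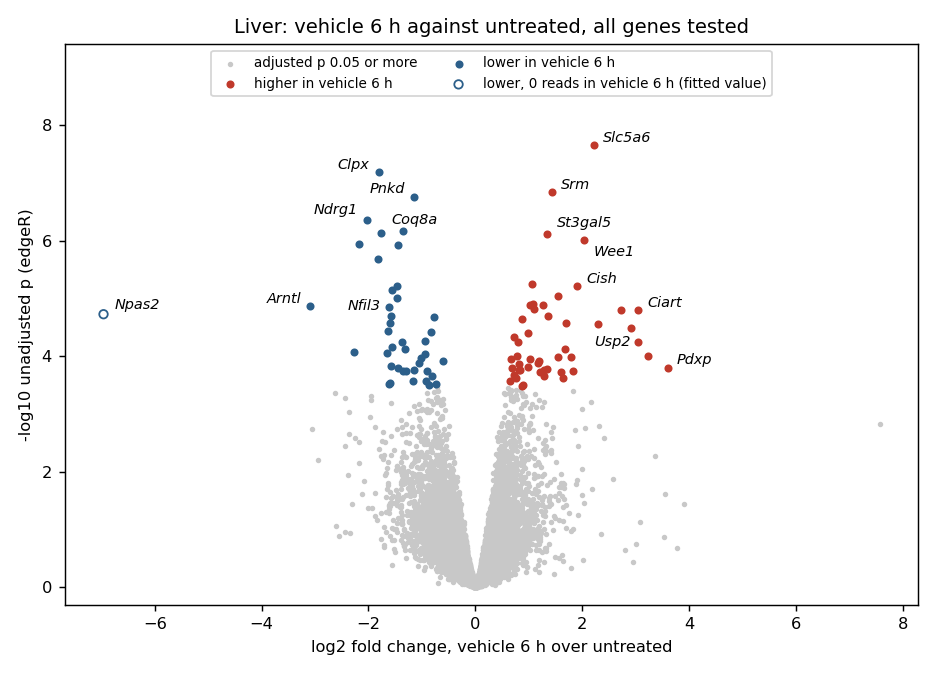
Each point is 1 of the 13592 genes tested in liver, with the log2 fold change of vehicle 6 h over untreated on the horizontal axis and the negative log10 of the unadjusted edgeR p on the vertical axis. The 49 red genes were higher and the 42 blue genes lower in vehicle 6 h livers; the open circle is Npas2, which had 0 reads in vehicle 6 h, so its horizontal place is a fitted value and not a measured fold.

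Among the core clock genes, the activators Arntl and Npas2 fell in vehicle 6 h livers. Arntl (ENSMUSG00000055116, chromosome 7 from 112806672 to 112913333 on mm39) had 0.22, 0.638 and 1.35 CPM in vehicle 6 h livers, against 3.30, 7 and 8.74 CPM in untreated livers. Every vehicle 6 h library was below every untreated library, and Arntl fell by 3.09 ± 0.53 (SE) on the log2 scale with an adjusted p of 0.00825. Npas2 (chromosome 1 from 39232812 to 39402317), the partner that can replace Clock, had no read in any vehicle 6 h library and 5, 21 and 24 reads in the untreated libraries. With 3 reads taken as the least detectable sum of the vehicle 6 h libraries, Npas2 was at least 15.5-fold lower (adjusted p = 0.00944). Clock itself had 22.8, 18.6 and 19.7 CPM in vehicle 6 h and 26.2, 31.1 and 48.5 CPM in untreated livers. The groups did not overlap, but the difference of -0.79 ± 0.19 missed the threshold (adjusted p = 0.0669).

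Among the repressors Nr1d1 fell and Ciart rose. Nr1d1 (chromosome 11 from 98658758 to 98666159), which represses Arntl, had 22.6, 34.9 and 23.7 CPM in vehicle 6 h livers, against 78.9, 58.7 and 73.4 CPM in untreated livers, and fell by 1.38 ± 0.27 (adjusted p = 0.0181). Its relative Nr1d2 had 112, 115 and 113 CPM against 89.8, 59.5 and 60.5 CPM, a difference of 0.70 ± 0.19 that did not pass (adjusted p = 0.12). Ciart (chromosome 3 from 95785815 to 95789563), which represses the Clock-Arntl pair, had 10.4, 9.83 and 5.52 CPM in vehicle 6 h livers and 1.99, 0.233 and 0.835 CPM in untreated livers. All vehicle 6 h values were above all untreated ones, and Ciart rose by 3.05 ± 0.52 (adjusted p = 0.00843). The period genes Per1, Per2 and Per3, whose products repress the pair together with the Cry proteins, differed by 1.52 ± 0.49, 0.99 ± 0.37 and 1.87 ± 0.51. Their adjusted p values were 0.202, 0.271 and 0.117, so none passed, although in each the groups did not overlap. Cry2 (0.56 ± 0.17, adjusted p = 0.178) and Bhlhe40, another repressor of the pair (0.78 ± 0.21, adjusted p = 0.0997), were likewise apart without passing.

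Of the 18 core clock genes tested, Ciart rose, Arntl, Npas2 and Nr1d1 fell, and 14 did not pass. The groups did not overlap in 11 of the 18, of which 7 were higher and 4 lower in vehicle 6 h, against 9.23% and 9.06% of all genes tested. The list's median change was 0.15, also with Npas2 set at its bound of -3.95. The gene lists of this report were chosen with earlier results of these data known, so an excess over all genes is no independent test. Cry1 (0.30 ± 0.25), Rora (-0.26 ± 0.20), the kinase genes Csnk1d (0.00 ± 0.12) and Csnk1e (-0.12 ± 0.28) and the repressor gene Bhlhe41 (0.09 ± 0.92) overlapped between the groups. When the fit held only the 6 libraries compared, 17 of these genes were tested, 0 rose and 1, Nr1d1, fell, so Arntl and Ciart lost their calls and Npas2 was not tested. DESeq2 called 4 higher and 3 lower, and limma voom 5 and 3. With 1 library left out, Arntl missed the threshold without vehicle 6 h replicate 1 or 2 (adjusted p = 0.0529 and 0.062), Npas2 without vehicle 6 h replicate 1 (0.0529) and Ciart without untreated replicate 3 (0.0525). Nr1d1 missed it without vehicle 6 h replicate 1 or 3 (0.141 and 0.0625) and without untreated replicate 1 or 3 (0.069 and 0.0531).

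Of 25 tested genes that the clock is known to drive, 6 rose and 1, Nfil3, fell, against 0.361% higher and 0.309% lower among all genes tested. This list, too, was chosen with earlier results of these data known. Wee1 (chromosome 7 from 109721253 to 109742493), the kinase that holds cells before mitosis and a known target of the clock in liver, had 30.6, 22.7 and 30.4 CPM in vehicle 6 h livers, against 11, 3.38 and 5.99 CPM in untreated livers. It rose by 2.04 ± 0.28 (adjusted p = 0.00148) and passed with each of the 6 libraries left out. Usp2 (chromosome 9 from 43978318 to 44006924), a ubiquitin protease with strongly rhythmic liver expression, had 24.8, 22.5 and 29.7 CPM against 7.18, 2.45 and 6.04 CPM. It rose by 2.29 ± 0.41 (adjusted p = 0.0112). Tef, one of the bZIP factors above, had 239, 189 and 212 CPM in vehicle 6 h livers and 101, 55.3 and 93.5 CPM in untreated livers, a rise of 1.36 ± 0.24 (adjusted p = 0.00949). No vehicle 6 h library of these 3 genes reached down to an untreated one.

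Por, the reductase that supplies electrons to the liver's cytochromes P450, had 793, 750 and 739 CPM in vehicle 6 h livers and 312, 295 and 475 CPM in untreated livers. It rose by 1.08 ± 0.18 (adjusted p = 0.00825). Coq10b, whose product binds the electron carrier coenzyme Q, had 73.7, 71.6 and 59.2 CPM against 24.3, 28.6 and 17.3 CPM, and rose by 1.54 ± 0.25 (adjusted p = 0.00733). Nfil3, the bZIP repressor that competes with Dbp, Tef and Hlf, had 4.40, 6.13 and 6.12 CPM in vehicle 6 h livers, against 13.9, 20 and 16.7 CPM in untreated livers, and fell by 1.61 ± 0.27 (adjusted p = 0.00825). Marveld1 also rose, by 0.82 ± 0.17 (adjusted p = 0.031). Tef, Marveld1, Dbp and Hlf are members of the list that lie outside the naming rule and were chosen after their values were seen, and Tef and Marveld1 were not followed with a library left out. Dbp averaged 158 CPM in vehicle 6 h and 38.2 CPM in untreated livers, a difference of 2.05 that missed the threshold (adjusted p = 0.112), and Hlf differed by 0.25 (adjusted p = 0.581). The median change of the 25 genes was 0.66, and 13 were higher and 4 lower at an unadjusted p under 0.05, which 12.8% of all genes tested reached in either direction. DESeq2 called 10 of the 25 higher and 3 lower, and limma voom 11 and 2. When the fit held only the 6 libraries compared, 2 rose and 1 fell, with Wee1 and Por among the calls lost, and without untreated replicate 2, 2 rose and 0 fell. Por missed the threshold without untreated replicate 2 (adjusted p = 0.0697), Usp2 without untreated replicate 2 or 3 (0.0635 and 0.0511), and Nfil3 without vehicle 6 h replicate 1 (0.0687) or untreated replicate 2 (0.053).

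**Figure D2:**
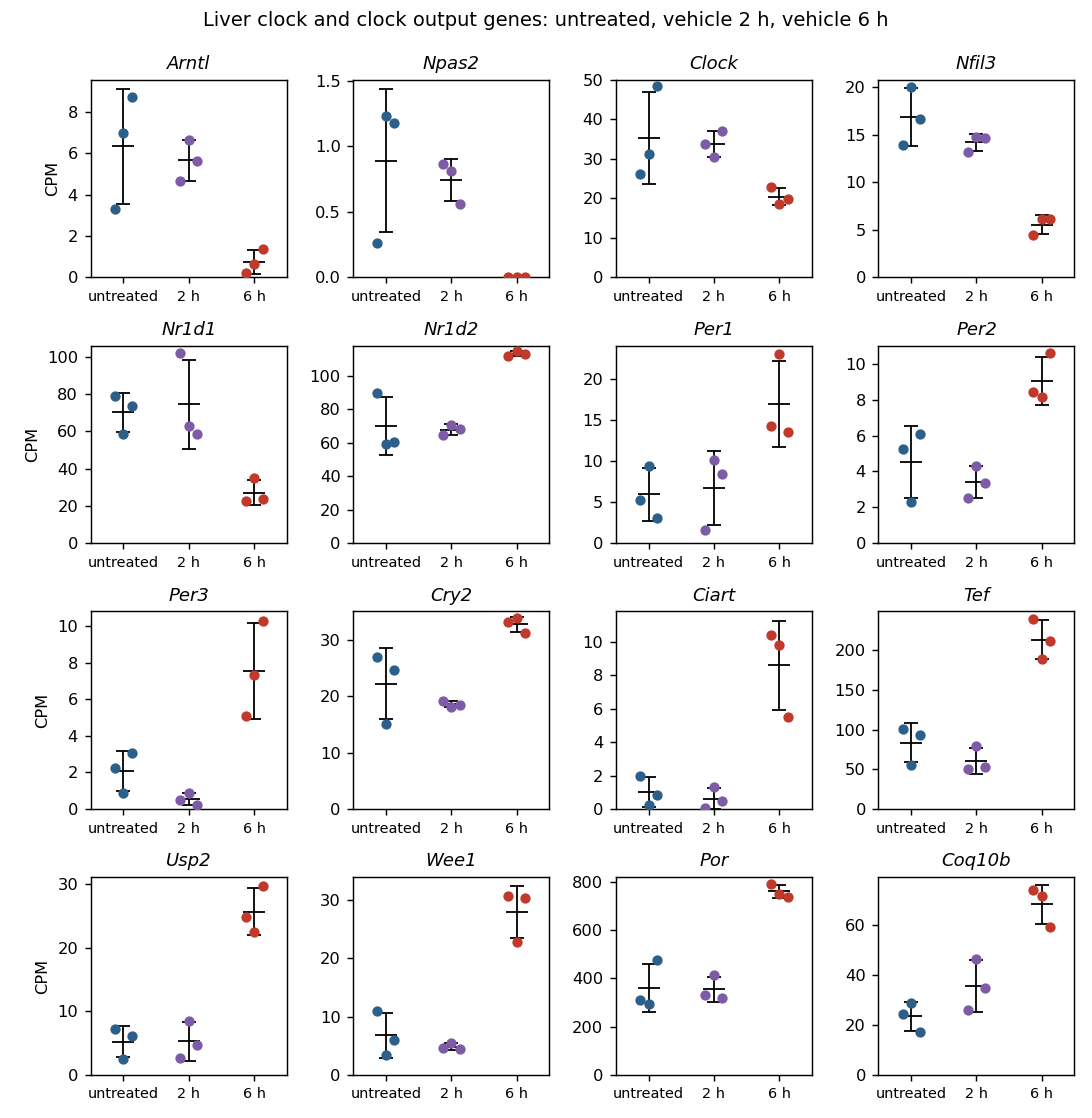
Levels in CPM of 16 clock and clock output genes in each liver library, in the order untreated, vehicle 2 h, vehicle 6 h; points are libraries and black bars the mean ± SD (n = 3 each), and every vertical axis starts at 0. Arntl, Npas2, Nfil3 and Nr1d1 were lowest in the vehicle 6 h libraries, and Ciart, Tef, Usp2, Wee1 and Por were highest there.

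The promoters of 6 genes of the clock lists are shown, chosen because they hold letters through which clock factors are known to act, and Per3 among them did not pass against untreated livers. The letters are the E-box CACGTG, read by Arntl with its partner, the D-box TTANGTAA, read by Dbp, Tef, Hlf and Nfil3, and the core TAGGTCA of the element read by Rora and the Nr1d receptors. Each sequence covers 250 bases before to 50 bases after a gene start in RefSeq on GRCm38.p6, written along the gene's strand, with motif matches on either strand in capitals. They are the windows chr3:95882179-95882478 (minus strand, Ciart), chr15:81811164-81811463 (plus strand, Tef), chr1:55052520-55052819 (plus strand, Coq10b), chr4:151044616-151044915 (minus strand, Per3), chr7:113207261-113207560 (plus strand, Arntl) and chr13:52980990-52981289 (minus strand, Nfil3). Coq10b holds a D-box and, after it, an E-box, and Nfil3 holds the receptor core on its other strand.
Ciart: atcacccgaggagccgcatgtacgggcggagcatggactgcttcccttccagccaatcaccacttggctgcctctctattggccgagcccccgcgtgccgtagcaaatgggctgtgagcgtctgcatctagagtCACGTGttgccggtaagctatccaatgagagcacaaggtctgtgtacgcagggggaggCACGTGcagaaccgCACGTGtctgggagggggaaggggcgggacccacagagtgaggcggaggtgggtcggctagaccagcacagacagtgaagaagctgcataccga
Tef: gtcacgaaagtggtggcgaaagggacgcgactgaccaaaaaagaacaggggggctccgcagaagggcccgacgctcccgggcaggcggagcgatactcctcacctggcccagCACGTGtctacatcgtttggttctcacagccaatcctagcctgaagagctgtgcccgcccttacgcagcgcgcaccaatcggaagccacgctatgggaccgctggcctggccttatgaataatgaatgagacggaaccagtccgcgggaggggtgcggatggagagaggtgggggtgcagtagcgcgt
Coq10b: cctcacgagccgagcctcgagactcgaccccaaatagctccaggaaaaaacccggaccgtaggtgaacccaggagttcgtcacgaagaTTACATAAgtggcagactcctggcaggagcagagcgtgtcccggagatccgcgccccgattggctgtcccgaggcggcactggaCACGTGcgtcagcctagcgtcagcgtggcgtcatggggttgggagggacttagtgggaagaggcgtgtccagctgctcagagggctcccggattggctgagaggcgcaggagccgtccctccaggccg
Per3: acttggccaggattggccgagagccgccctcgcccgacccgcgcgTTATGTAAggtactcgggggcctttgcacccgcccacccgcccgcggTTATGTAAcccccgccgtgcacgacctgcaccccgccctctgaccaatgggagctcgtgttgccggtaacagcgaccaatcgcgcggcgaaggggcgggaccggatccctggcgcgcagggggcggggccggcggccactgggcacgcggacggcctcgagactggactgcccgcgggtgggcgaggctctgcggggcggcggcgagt
Arntl: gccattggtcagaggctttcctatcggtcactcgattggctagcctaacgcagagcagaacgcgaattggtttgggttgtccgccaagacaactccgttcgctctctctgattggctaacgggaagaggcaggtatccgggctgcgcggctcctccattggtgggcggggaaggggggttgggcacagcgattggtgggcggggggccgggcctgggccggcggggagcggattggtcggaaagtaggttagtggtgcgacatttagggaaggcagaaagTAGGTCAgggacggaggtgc
Nfil3: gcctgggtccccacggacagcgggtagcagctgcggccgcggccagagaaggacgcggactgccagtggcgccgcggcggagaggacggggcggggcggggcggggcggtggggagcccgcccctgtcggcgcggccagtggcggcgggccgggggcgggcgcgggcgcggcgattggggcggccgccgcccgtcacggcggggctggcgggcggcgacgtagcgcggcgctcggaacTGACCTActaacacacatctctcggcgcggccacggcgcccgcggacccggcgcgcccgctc

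The Ciart window holds 3 E-boxes, with first bases at -116, -58 and -44 from the gene start, and the Per3 window holds 2 D-boxes, at -205 and -158. The receptor core begins at 31 in Arntl and at -12 in Nfil3. No match overlapped one of another motif. Over the 32851 promoters of the table the E-box stood in 7.15%, the D-box in 2.32% and the receptor core in 2.61%. Of the 91 called genes 75 had a promoter in the table, and 10 of these held an E-box (13.3%), 3 a D-box (4.0%) and 5 a receptor core (6.67%). Among the 10145 tested genes with a promoter the shares were 11.7%, 1.98% and 2.58%. Of the 43 core clock and clock output genes tested 35 had a promoter in the table, and 7 held an E-box (20%), 2 a D-box (5.71%) and 3 a receptor core (8.57%). The windows of the called clock genes Npas2, Nr1d1, Usp2, Por and Marveld1 held none of the 3 motifs. Wee1 was not among the genes with a match either. A match says only that the letters are in the window.

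Outside the clock lists, the rises with the smallest p were those of a vitamin carrier, a polyamine enzyme and a ganglioside enzyme. Slc5a6 (ENSMUSG00000006641, chromosome 5 from 31193380 to 31206268), the carrier for biotin and pantothenate, had 32.1, 37.4 and 28.7 CPM in vehicle 6 h livers, against 8.18, 5.43 and 7.37 CPM in untreated livers. It rose by 2.22 ± 0.24 with an adjusted p of 0.000305, the smallest of all genes tested. Srm (chromosome 4 from 148675960 to 148679450), the synthase that makes spermidine, had 50.0, 52.1 and 35.8 CPM in vehicle 6 h and 20, 16.1 and 14.7 CPM in untreated livers, a rise of 1.44 ± 0.18 (adjusted p = 0.000591). St3gal5, which makes the ganglioside GM3, had 300, 291 and 203 CPM against 100, 101 and 110 CPM, and rose by 1.35 ± 0.19 (adjusted p = 0.00131). In all 3 genes the groups were far apart, and each passed with every one of the 6 libraries left out.

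Further large rises were found at low levels. Pdxp, a phosphatase of vitamin B6, had 1.21, 1.21 and 2.27 CPM in vehicle 6 h and 0.105, 0.0584 and 0.196 CPM in untreated livers, a rise of 3.60 ± 0.73 (adjusted p = 0.0328). Snai3, of the Snail family of repressors, had 1.15, 1.34 and 1.14 CPM against 0.157, 0.0584 and 0.196 CPM (3.04 ± 0.59, adjusted p = 0.0181), and Eif4ebp3, an inhibitor of cap-dependent translation, had 4.34, 4.47 and 2.33 CPM against 0.262, 0.292 and 0.884 CPM (2.91 ± 0.53, adjusted p = 0.0126). These 3 genes did not overlap between groups but lay near or below 1 CPM in untreated livers. At higher levels Nmrk1, a kinase of NAD salvage, rose by 1.68 ± 0.33, the kinase gene Pim3 by 1.65 ± 0.36, Nrg4, a ligand of the Egf family, by 1.60 ± 0.34, and Serpina7, the thyroxine-binding globulin, by 1.82 ± 0.38. Their adjusted p values were 0.0226, 0.0398, 0.0335 and 0.0328. Pim3 and Serpina7 owed part of the mean to vehicle 6 h replicate 2, with 189 and 112 CPM there, and without it the changes were 1.23 (adjusted p = 0.207) and 1.36 (adjusted p = 0.171). With 1 library left out at a time, Pdxp passed in 0 of 6 fits, Snai3, Nmrk1, Pim3 and Nrg4 in 1, and Eif4ebp3 and Serpina7 in 2, with adjusted p values of at most 0.137, 0.0997, 0.104, 0.207, 0.174, 0.084 and 0.171. The fit that Snai3, Nmrk1, Pim3 and Nrg4 passed was the one without vehicle 6 h replicate 3, which Eif4ebp3 and Serpina7 passed as well, beside the one without untreated replicate 3 or vehicle 6 h replicate 1.

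Among the falls, Clpx (ENSMUSG00000015357, chromosome 9 from 65201542 to 65237940), the unfoldase of a mitochondrial protease, had the smallest p. It had 57.6, 52.2 and 49.6 CPM in vehicle 6 h livers, against 114, 233 and 212 CPM in untreated livers, and fell by 1.81 ± 0.21 (adjusted p = 0.000447). Coq8a (chromosome 1 from 179992803 to 180027167), an atypical kinase needed for making coenzyme Q, had 160, 167 and 216 CPM in vehicle 6 h and 470, 772 and 615 CPM in untreated livers, and fell by 1.77 ± 0.24 (adjusted p = 0.00131). Pnkd, a gene first known from a movement disorder, had 46.0, 48.3 and 54.0 CPM against 94.3, 110 and 124 CPM, a fall of 1.15 ± 0.14 (adjusted p = 0.000591). The vehicle 6 h libraries of these 3 genes lay close together and below every untreated library.

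Ndrg1, a gene induced by hypoxia and stress, had 7.04, 7.85 and 11 CPM in vehicle 6 h and 20.7, 46.6 and 38.4 CPM in untreated livers. It fell by 2.03 ± 0.27 (adjusted p = 0.00118). Asap2, which switches off Arf proteins, fell by 2.17 ± 0.31 (adjusted p = 0.00149), and Denn2b, an activator of Rab proteins, by 1.83 ± 0.27 (adjusted p = 0.00238). Clpx, Coq8a, Pnkd, Ndrg1, Asap2 and Denn2b each passed with any of the 6 libraries left out. Ppp1r3c, which directs a phosphatase to glycogen, had 20, 18.8 and 13.7 CPM against 60.9, 41.1 and 60.0 CPM, and fell by 1.63 ± 0.30 (adjusted p = 0.0137). Loxl4, a lysyl oxidase of the extracellular matrix, fell by 2.27 ± 0.45, Glipr2 by 1.65 ± 0.33, the magnesium carrier gene Slc41a2 by 1.61 ± 0.36 and the transcription factor gene Bach2 by 1.59 ± 0.36, with adjusted p values of 0.0243, 0.0246, 0.0474 and 0.0465. Glipr2 and Slc41a2 passed in 0 of the 6 fits with a library left out and Ppp1r3c, Loxl4 and Bach2 in 1, with adjusted p values of at most 0.121, 0.293, 0.0682, 0.149 and 0.189. Ppp1r3c passed without untreated replicate 2, and Loxl4 and Bach2 without untreated replicate 1.

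**Figure D3:**
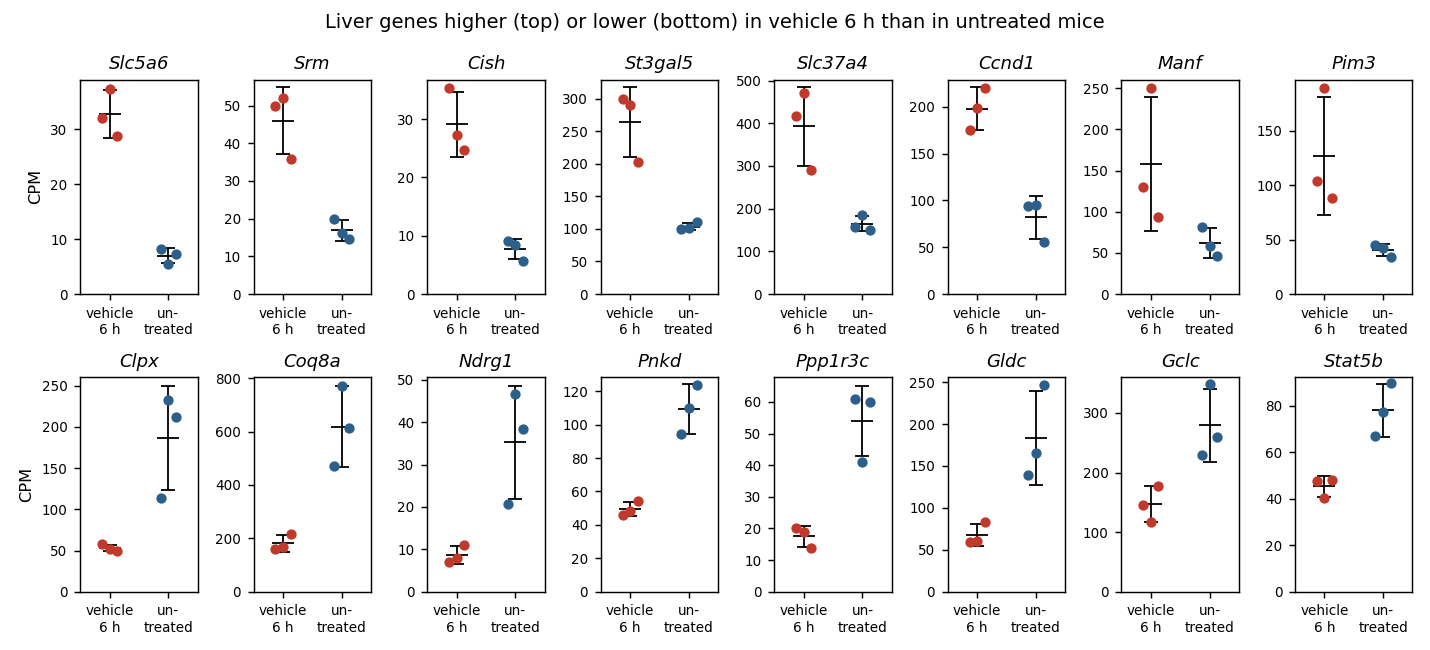
Levels in CPM of 8 genes that rose (upper row) and 8 that fell (lower row), vehicle 6 h left of untreated; points are libraries, black bars the mean ± SD (n = 3 each), and every vertical axis starts at 0. In none of the 16 genes did the groups overlap, and vehicle 6 h replicate 2 stood above the other 2 vehicle libraries in Manf (250 CPM) and Pim3 (189 CPM); Slc37a4 and Gldc were chosen for the plot after their values were seen.

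Of the 27 cell cycle genes tested, 4 rose and 0 fell, against 0.361% higher and 0.309% lower among all genes tested, and 1 rose when the fit held only the 6 libraries compared. Beside Wee1 these were Ccnd1, the cyclin of early G1, with 175, 199 and 220 CPM in vehicle 6 h and 93.8, 95.5 and 55.8 CPM in untreated livers (1.28 ± 0.27, adjusted p = 0.0328), Ccne2, a cyclin of the entry into S phase (1.28 ± 0.28, adjusted p = 0.0373), and the kinase gene Plk3 (1.54 ± 0.31, adjusted p = 0.0265). The list's median change was 0.17, and the list was chosen with earlier results of these data known. With 1 library left out, Ccnd1 passed in 0 of 6 fits and Ccne2 and Plk3 in 1, with adjusted p values of at most 0.125, 0.191 and 0.15, and the fits passed were those without vehicle 6 h replicate 1 for Ccne2 and replicate 3 for Plk3. Among 21 genes of Stat5 and growth hormone signalling, Cish, a feedback inhibitor of Stat5, had 35.3, 27.3 and 24.7 CPM in vehicle 6 h and 9.07, 8.46 and 5.75 CPM in untreated livers. Cish rose by 1.91 ± 0.30 (adjusted p = 0.00558), while Stat5b itself fell to 47.6, 40.2 and 48.1 CPM, against 66.9, 77.3 and 89.6 CPM in untreated livers (-0.78 ± 0.14, adjusted p = 0.00949). The other 19 did not pass, and the list's median was -0.04. Stat5b missed the threshold without vehicle 6 h replicate 2 (adjusted p = 0.0626) or untreated replicate 3 (0.0525).

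In the lists of metabolism few members passed. Of 20 genes of bile acid synthesis and transport, Nr0b2, the corepressor that holds down bile acid synthesis, fell to 13.4, 17.9 and 10.7 CPM in vehicle 6 h, against 26.5, 41.8 and 46.9 CPM in untreated livers (-1.45 ± 0.31, adjusted p = 0.0328). Cyp7a1, the rate-limiting enzyme of that synthesis, had 333, 229 and 295 CPM against 120, 66.7 and 153 CPM, a difference of 1.33 ± 0.41 that did not pass (adjusted p = 0.173). Nr0b2 passed in 1 of 6 fits with a library left out, the one without untreated replicate 1, with adjusted p values of at most 0.176. Of 35 drug metabolism genes only Por rose and none fell. Alas1, the first enzyme of heme synthesis, averaged 628 ± 128 CPM against 303 ± 78.4 CPM (SD, n = 3 each) without passing (1.05 ± 0.33, adjusted p = 0.185). None of the 25 cholesterol synthesis genes passed the edgeR test, although 7 were higher and 0 lower at an unadjusted p under 0.05, among them Stard4 (0.71 ± 0.19), and the median was 0.33. DESeq2 and limma voom each called 1 of the 25, higher in vehicle 6 h.

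Of 22 fatty acid synthesis genes none passed, and 4 were higher and 1 lower at an unadjusted p under 0.05. Thrsp, a regulator of lipogenesis, had 706, 565 and 602 CPM in vehicle 6 h livers and 191, 118 and 160 CPM in untreated livers. These values were far apart, with a difference of 2.00 ± 0.49 and an adjusted p of 0.0756. None of 32 PPAR-alpha and fasting genes passed (4 higher and 2 lower at an unadjusted p under 0.05, median 0.00). None of 32 genes of gluconeogenesis and amino acid catabolism passed (4 higher and 2 lower, median 0.11), and the closest was Pfkfb1, which sets fructose 2,6-bisphosphate in liver (1.11 ± 0.26, adjusted p = 0.0575). None of 23 insulin and Igf signalling genes passed (4 higher and 3 lower, median -0.15), where Irs2 had 4.07, 11.4 and 6.12 CPM in vehicle 6 h and 18.3, 18.1 and 14.4 CPM in untreated livers. In these 4 lists DESeq2 called 2, 0, 2 and 0 genes higher and none lower, and limma voom called 2, 3, 3 and 1 higher and 0, 0, 2 and 2 lower. A p that misses the threshold does not show that these genes were equal in both groups.

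Handling and inflammation lists held few or no calls. None of 31 acute phase genes passed and none had an unadjusted p under 0.05, with a median of 0.05. None of 18 NF-kB targets and chemokines tested passed, and 0 were higher and 4 lower at an unadjusted p under 0.05. None of 21 glucocorticoid induced genes passed, with 4 higher and 4 lower. Fkbp5, a feedback gene of the glucocorticoid receptor, had 73.7, 67.1 and 46.1 CPM in vehicle 6 h and 38.0, 29.8 and 40.6 CPM in untreated livers (0.79 ± 0.24, adjusted p = 0.174). None of 28 immediate early genes passed, with 4 higher and 6 lower, and the growth gene Myc had 4.40, 5.04 and 7.04 CPM against 1.78, 1.58 and 1.28 CPM (1.83 ± 0.42, adjusted p = 0.0551). DESeq2 and limma voom called 0 and 0 acute phase genes, 1 and 2 NF-kB targets (all lower), 2 and 2 glucocorticoid induced genes and 1 and 1 immediate early gene.

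None of 34 interferon induced genes passed the edgeR test, but 23 were lower and 0 higher at an unadjusted p under 0.05, and the median was -0.80. DESeq2 called 3 of them lower and limma voom 17. The pattern rested most on 1 library: without untreated replicate 1, 4 were lower and 0 higher at an unadjusted p under 0.05, and the median was -0.24. Without vehicle 6 h replicate 2, 11 were lower and 0 higher, and the median was -0.67. Igtp, an interferon induced GTPase, had 52.6, 26.4 and 56.7 CPM in vehicle 6 h and 262, 64.9 and 64.3 CPM in untreated livers (-1.53 ± 0.46, adjusted p = 0.172). Usp18, which removes the tag Isg15 from proteins, had 10.1, 9.58 and 9.53 CPM against 24.4, 14.1 and 12.2 CPM (-0.80 ± 0.23, adjusted p = 0.142). Untreated replicate 1 was the highest library in both. That library was also the highest for 11 Kupffer cell markers, which summed to 322, 319 and 460 CPM in vehicle 6 h and 774, 473 and 381 CPM in untreated livers. The 10 B cell markers summed to 8.47, 8.05 and 9.06 CPM against 13.8, 15.6 and 9.65 CPM, and the 11 markers of sinusoidal endothelium to 260, 312 and 334 CPM against 427, 362 and 406 CPM, and every marker of the 3 lists had reads in these libraries. In bulk tissue, fewer cells of a type and less RNA per cell cannot be told apart, and the part of these markers in the interferon values was not tested. At 2 h the same 34 genes had a median of -0.72 against the same untreated libraries.

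Stress lists held single calls. Of 26 genes tested that respond to unfolded proteins or to lack of amino acids, Manf, a secreted protein of the stressed endoplasmic reticulum, had 130, 250 and 94.1 CPM in vehicle 6 h and 81.2, 58.2 and 46.5 CPM in untreated livers and rose by 1.35 ± 0.29 (adjusted p = 0.0328). Vehicle 6 h replicate 2 was the highest, and without it the change was 0.84 (adjusted p = 0.185). The chaperone gene Hspa5 had 916, 1280 and 817 CPM against 595, 581 and 580 CPM (0.78 ± 0.22, adjusted p = 0.123) and did not pass. Of 22 Nrf2 antioxidant genes tested, Gclc, which sets the rate of glutathione synthesis, fell to 146, 117 and 178 CPM, against 229, 348 and 260 CPM in untreated livers (-0.93 ± 0.21, adjusted p = 0.0437), and it passed in 2 of 6 fits with a library left out, with adjusted p values of at most 0.222. Manf also passed in 2, and for both these were the fits without untreated replicate 1 or vehicle 6 h replicate 3. Of 21 hypoxia genes tested only Ndrg1 passed. Lists of cytosolic heat shock (24 genes), metallothionein and metal (16), ribosome biogenesis (26), p53 target (20), autophagy and lysosome (25) and mitochondrially encoded genes (13) held no call. At an unadjusted p under 0.05 these lists had 2, 1, 2, 2, 2 and 0 genes higher and 2, 1, 0, 5, 1 and 1 lower. DESeq2 called 1, 1, 0, 1, 0 and 0 of them and limma voom 3, 1, 2, 3, 2 and 0.

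Of 17 genes of the Egf family and its receptors tested, Nrg4 rose and the rest did not pass. Egfr, the receptor that the study's growth factor binds, had 210, 192 and 182 CPM in vehicle 6 h livers and 172, 193 and 269 CPM in untreated livers. The groups overlapped, the difference was -0.12 ± 0.31 and the adjusted p was 0.883. Errfi1, a feedback inhibitor of Egfr, had 937, 1060 and 723 CPM in vehicle 6 h and 242, 642 and 210 CPM in untreated livers, apart but without passing (1.31 ± 0.38, adjusted p = 0.14). Nrg4 had 7.42, 6.58 and 6.01 CPM against 2.62, 2.28 and 1.72 CPM.

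**Figure D4:**
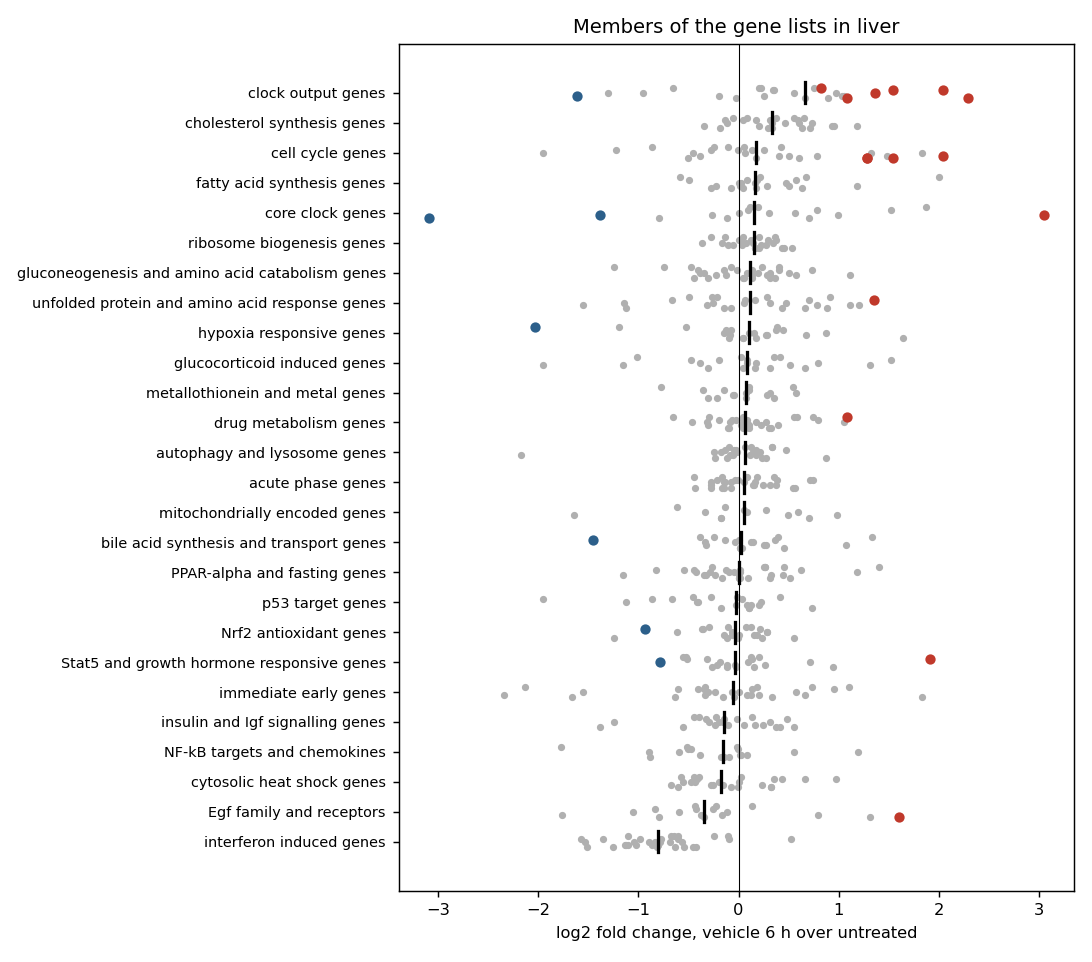
Each row is 1 of 26 gene lists and each point a member tested in liver, placed by its log2 fold change of vehicle 6 h over untreated; red points rose, blue points fell, grey points did not pass and black bars are list medians. The rows of clock output, core clock and cell cycle genes held 6, 1 and 4 rises and 1, 3 and 0 falls. Wee1 is in both the clock output and the cell cycle row. Most of the 91 called genes are in no list, and the lists were chosen with earlier results of these data known. The interferon induced genes lie mostly left of 0 with no call (Npas2, with 0 reads in vehicle 6 h, is counted in its median but not drawn).

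The vehicle 2 h livers place these differences in time, using the same untreated libraries. At 2 h, 21 genes were called (0.155%), 10 higher (0.0736%) and 11 lower (0.0809%), and 16.6% had an unadjusted p under 0.05. Among the 21 were 3 of the 91 genes called at 6 h, St3gal5, Cish and Mknk2, a kinase that phosphorylates a translation factor, which was singled out after its values were seen. St3gal5 had 100, 101 and 110 CPM in untreated, 258, 242 and 315 CPM in vehicle 2 h and 300, 291 and 203 CPM in vehicle 6 h livers, and Cish had 9.07, 8.46 and 5.75, then 30.9, 18 and 29.5, then 35.3, 27.3 and 24.7 CPM. For both, 6 h and 2 h did not differ past the threshold (-0.04, adjusted p = 0.954, and 0.16, adjusted p = 0.872). The number at 2 h fell to 1 without untreated replicate 1 and was 2, 3, 4, 11 and 18 without vehicle 2 h replicate 3, untreated replicate 3, vehicle 2 h replicate 2, vehicle 2 h replicate 1 or untreated replicate 2.

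The difference between the times was tested directly, and 211 genes (1.55%) differed between vehicle 6 h and vehicle 2 h livers, 141 higher (1.04%) and 70 lower (0.515%) at 6 h, while 12.9% had an unadjusted p under 0.05. Among the 91 genes, 27 of the 49 that rose and 27 of the 42 that fell also differed from the 2 h level. Both comparisons use the same vehicle 6 h libraries, which favours such differences among genes selected for their 6 h level. Slc5a6 had 32.1, 37.4 and 28.7 CPM at 6 h and 6.32, 10.2 and 5.58 CPM at 2 h (2.14, adjusted p = 0.000189), and Wee1 had 30.6, 22.7 and 30.4 CPM at 6 h and 4.59, 5.49 and 4.40 CPM at 2 h (2.53, adjusted p = 0.000254). Arntl had 0.22, 0.638 and 1.35 CPM at 6 h and 4.66, 6.67 and 5.65 CPM at 2 h (-2.92, adjusted p = 0.00739), and Ciart had 10.4, 9.83 and 5.52 CPM at 6 h and 0.0718, 1.31 and 0.489 CPM at 2 h (3.73, adjusted p = 0.00212). At 2 h the values of Slc5a6, Wee1, Arntl and Ciart against untreated were 0.08, -0.49, -0.16 and -0.68, none of which passed. Per3 and Cry2, which did not pass against untreated livers, were higher at 6 h than at 2 h by 3.80 (adjusted p = 0.00318) and 0.82 (adjusted p = 0.0208).

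For some genes it was the 2 h level that stood farthest from the others. Cdkn1a, the inhibitor of cyclin-dependent kinases known as p21, had 3.99, 6.36 and 3.34 CPM in untreated, 17.9, 26.5 and 42.2 CPM in vehicle 2 h and 1.70, 1.15 and 0.65 CPM in vehicle 6 h livers. The difference of 6 h from 2 h was -4.62 (adjusted p = 0.000188), and its difference from untreated was -1.95 ± 0.47 with an adjusted p of 0.0632. Tgm1, a transglutaminase, had 31.7, 43.3 and 36.5 CPM at 6 h and 9.47, 7.17 and 4.96 CPM at 2 h, with 23.2, 18.2 and 20.6 CPM in untreated livers. Tlr12, a Toll-like receptor, and Ttc7 were higher at 6 h than at 2 h by 1.75 and 1.11 (adjusted p = 0.00059 and 0.000485). Clpx and Srm completed the 8 genes of smallest p, with differences of -1.67 and 1.58. The number of genes that differed between the times was 76, 133 and 149 when vehicle 6 h replicate 1, 2 or 3 was left out, and 132, 101 and 85 when the same was done at 2 h.

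Livers taken 6 h after Egf gave further readings at the same time after an injection. Arntl had 0.724, 1.07, 0.373 and 1.42 CPM in the 4 Egf 6 h libraries and Ciart 6.18, 7.16, 7.84 and 5.64 CPM, and each of these values lay on the vehicle 6 h side of all untreated livers. Slc5a6 had 32.6, 42.0, 44.4 and 32.9 CPM, Wee1 24.6, 26.6, 27.2 and 24.2 CPM and Clpx 63.3, 58.5, 54.6 and 50.2 CPM, again on the vehicle 6 h side of all untreated libraries. Npas2 had 0.334, 0.0535, 0.124 and 0.301 CPM, of which 2 were above the lowest untreated value of 0.262 CPM. These genes are some of those called for a difference from the same untreated libraries. That favours such values, so they are no independent evidence. No test of Egf was made here. The Egf 6 h libraries were part of the fit over 17 liver libraries, so they entered its estimate of the spread.

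Heart, lung and kidney had vehicle 6 h and untreated libraries too. A fit over all 68 libraries compared the change from untreated to vehicle 6 h between liver and the mean of the other 3 organs. The change differed for 109 of 18736 genes (0.582%). In liver it lay above that mean for 63 (0.336%) and below it for 46 (0.246%). An unadjusted p under 0.05 was reached by 7.99% of genes. The labels give 3 untreated mice in all, so untreated libraries of different organs share animals, which the fit did not model. The hepatocyte marker Cyp2e1 averaged 111 CPM in vehicle 6 h and 632 CPM in untreated hearts, 133 and 31.7 CPM in lung and 136 and 104 CPM in kidney. None of these differences passed. For genes high in liver, such uneven levels enter the mean of the other organs, and their part was not tested. Of the 91 genes called in liver 45 differed in this test, 27 that rose and 18 that fell. The test reuses the 6 liver libraries that selected the 91 genes, which favours such differences, so this count is no independent evidence. Clpx had the smallest p, with -1.81 in liver and -0.13, -0.02 and -0.33 in heart, lung and kidney (difference -1.67, adjusted p = 7.67e-09). Slc5a6 had a value of 2.22 in liver and of 0.31, 0.32 and 0.46 in the other organs (difference 1.84, adjusted p = 1.42e-08). Pnkd, Srm, Asap2, St3gal5, Denn2b and Ap3m1, a subunit of a vesicle adaptor that rose by 0.88 ± 0.16 in liver, made up the 8 of smallest p, with differences of -1.08, 1.25, -1.99, 1.63, -1.65 and 0.82. Ap3m1 missed the threshold in liver without vehicle 6 h replicate 2 (adjusted p = 0.062) or untreated replicate 2 (0.0772). The number of genes that differed between organs was 44, 66, 157, 111, 55 and 93 without vehicle 6 h replicate 1, 2 or 3 or untreated replicate 1, 2 or 3 of liver.

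For the core clock genes Arntl, Ciart and Nr1d1 the values of the other organs had the sign of liver. Arntl had a value of -2.30 in heart (adjusted p = 0.108), -2.55 in lung (adjusted p = 0.0146) and -2.82 in kidney (adjusted p = 0.0237), and liver differed from their mean by -0.56 (adjusted p = 0.966). Ciart had values of 2.02, 2.16 and 1.87, of which lung passed (adjusted p = 0.0416), and Nr1d1 by -0.63, -0.77 and -0.92, none of which passed. Neither gene differed from the other organs past the threshold (adjusted p = 0.73 and 0.589). Wee1 rose in lung (0.97, adjusted p = 0.0424) and kidney (1.02, adjusted p = 0.0207) and had a value of 0.92 in heart (adjusted p = 0.0891), less than in liver by 1.06 (adjusted p = 0.0301). Usp2 and Por also differed, by 1.56 and 1.00 (adjusted p = 0.0444 and 0.0227). In each organ's own fit 3 genes were called in heart (0.0192%), 17 in lung (0.101%) and 33 in kidney (0.211%).

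**Figure D5:**
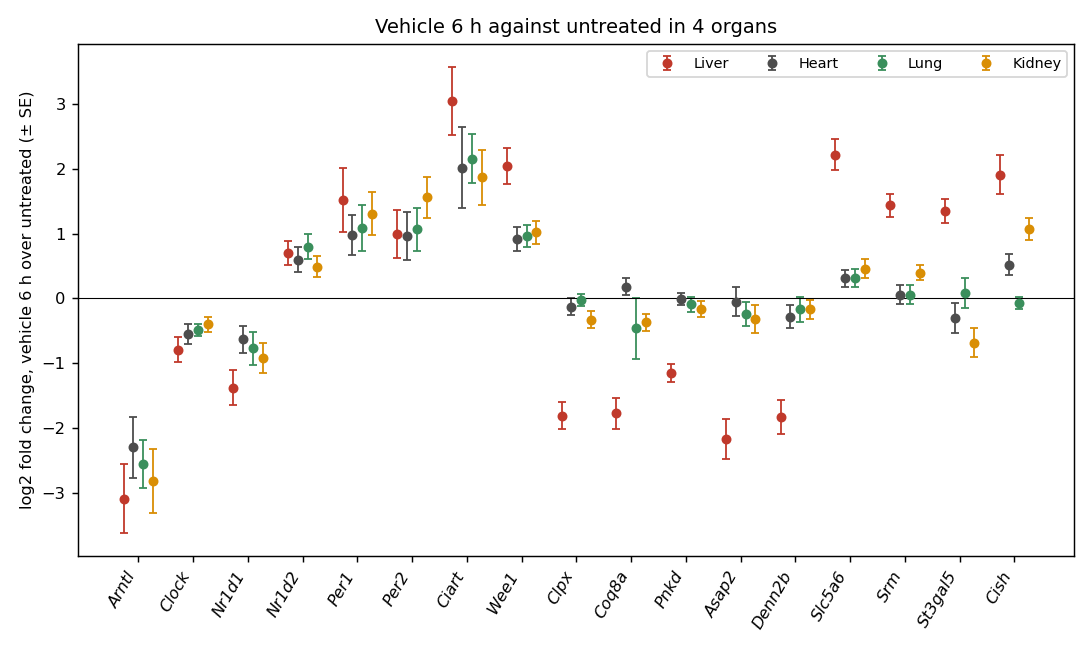
Log2 fold change of vehicle 6 h over untreated (± SE, n = 3 libraries a group) for 17 genes in liver, heart, lung and kidney, each from that organ's own fit. From Arntl to Ciart the organs lie on the same side of 0, whereas for Clpx (-1.81 in liver) and Slc5a6 (2.22) the other organs lie between -0.33 and 0.46.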

How the data were processed

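Polyadenylated RNA of mouse organs was sequenced from libraries that do not keep strand, so reads of a gene and of a gene on the opposite strand cannot be told apart. The authors deposited 1 table of raw read counts per gene, on mm39 coordinates, and per the submitters' processing notes HISAT2 2.0.5 and featureCounts 1.5.0-p3 were used. The counts were otherwise as deposited, for 56748 genes, of which 882 rows repeat a symbol and were kept apart by identifier.

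The 17 liver libraries were fitted together with edgeR 4.0.16 (R 4.3.3): low counts were filtered by filterByExpr, libraries were scaled by TMM, and groups were compared with the robust quasi-likelihood test with Benjamini-Hochberg adjustment over all genes tested and a threshold of 0.05. Each SE is the log2 fold change divided by the root of the F statistic. The difference between organs came from 1 such fit over all 68 libraries. Liver libraries held 14826465 to 19840994 reads, and the common biological coefficient of variation was 0.224. With 3 libraries a group an exact permutation test of 1 gene cannot go below 0.1. In simulated counts for vehicle 6 h against untreated over 13592 genes, the fit called 10.4% of 67 genes changed 1.5-fold, 56.7% of 67 changed 2-fold and 95.5% of 66 changed 4-fold, with 3 unchanged genes called. The changed genes all had a mean of at least 1 CPM, so these shares do not cover lower genes. Counts were drawn independently for each gene and library at the fitted spread, so differences of whole libraries were not simulated.

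Named genes were up to 12 rises and 12 falls of largest change (at least 1 CPM in a group, no overlap), up to 4 members of smallest p in each list, all core clock genes, Egfr, and up to 8 genes of smallest p between organs and between times; other names are said to be chosen after their values were seen. Some genes that the rule names are not reported here. The members and the gene lists were chosen with earlier results of these data known. Promoters were matched by symbol to RefSeq sequences on GRCm38.p6 and scanned for motifs on both strands. Alternatives were RLE scaling, other count filters, DESeq2 1.42.0, limma 3.58.1 voom with quality weights, a fit of the compared groups only, a replicate block and each library left out.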

Additional observations from a re-analysis of the deposited data

Results flagged for a closer look

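The genes below had a change that differed between organs or between times by the edgeR test of that difference. Groups of 3 libraries are too small for a formal test of a single outlying library. Single genes were followed with a library left out only in vehicle 6 h against untreated livers. There, genes such as Manf, Pdxp and Ccnd1 lost their call, as given above.

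Between organs, the difference was the log2 change of vehicle 6 h over untreated in liver minus the mean change of heart, lung and kidney. The difference was positive where the liver change lay above that mean, through a rise in liver, falls elsewhere or both. It was 1.84 for Slc5a6, 1.25 for Srm, 1.63 for St3gal5, 0.82 for Ap3m1, 1.36 for Manf and 1.38 for Cish. It was 2.27 for Myc, 3.27 for Pdxp, 2.72 for Snai3, 1.15 for Ccnd1, 1.0 for Por and 1.06 for Wee1. It was 0.85 for the chaperone gene Hspa5, 0.99 for Dnajb9, a cochaperone of the endoplasmic reticulum, 1.15 for the immediate early gene Ier2, 1.56 for Usp2 and 0.95 for Bhlhe40. Of these Myc, Hspa5, Dnajb9, Ier2 and Bhlhe40 did not pass in liver alone. Cish also rose in kidney (1.08, adjusted p = 0.0108 in that organ's edgeR fit), with values of 0.52 in heart and -0.07 in lung. For Ier2 the liver value was 0.57, against -1.15, -0.39 and -0.26 in heart, lung and kidney, none of which passed. The difference was negative for Clpx (-1.67), Pnkd (-1.08), Asap2 (-1.99), Denn2b (-1.65), Stat5b (-0.75) and Coq8a (-1.57). It was also negative for Ppp1r3c (-1.41), Slc41a2 (-1.33), the cochaperone gene Fkbp4 (-0.69) and the stress factor gene Ddit3 (-1.14), of which Fkbp4 and Ddit3 did not pass in liver alone.

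Between the times in liver, vehicle 6 h minus vehicle 2 h on the log2 scale was 1.58 for Srm, 2.14 for Slc5a6, 2.53 for Wee1, 2.37 for Tgm1, 1.11 for Ttc7 and 1.75 for Tlr12. Among clock and cell cycle genes it was 3.73 for Ciart, 3.8 for Per3, 0.82 for Cry2, 2.27 for Usp2, 1.1 for Por, 1.99 for Ccnd1 and 1.73 for Ccne2. It was 1.58 for Nmrk1, 3.73 for Pdxp, 2.55 for Snai3, 2.09 for Acot3, a thioesterase of fatty acid metabolism, and 1.14 for Insig1, a regulator of cholesterol synthesis. Genes lower at 6 h than at 2 h were Cdkn1a (-4.62), Clpx (-1.67), Coq8a (-1.84), Pnkd (-0.97), Denn2b (-1.73), Ndrg1 (-1.67) and Asap2 (-1.81). Among clock genes they were Arntl (-2.92), Nr1d1 (-1.46), Nfil3 (-1.36) and Npas2, whose fitted value of -6.71 rests on 0 reads at 6 h and is no measured fold. They also included Ppp1r3c (-1.47), Gclc (-0.91), the manganese exporter gene Slc30a10 (-0.94), Slc41a2 (-1.51) and Loxl4 (-1.89).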

How the results depend on the processing

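For vehicle 6 h against untreated the count of 91 genes became 285 with DESeq2 (87 of the 91 among them), 734 with limma voom and quality weights (89), 28 with only the groups compared (24) and 29 to 107 with 1 library left out. It was 91 with RLE scaling (90 of the 91 among them), 108 without a filter (74), 99 with a minimum of 1 CPM, and 89 without vehicle 2 h replicate 2 (84), an alternative chosen after seeing the data. For vehicle 2 h against untreated 21 genes became 37 without a filter, 151 with DESeq2, 541 with voom, 6 with only the groups compared and 1 to 18 with 1 library left out. For vehicle 6 h against vehicle 2 h 211 became 481 with DESeq2, 1074 with voom and 76 to 149 with 1 library left out. For the difference between organs 109 became 61 without a filter, 511 with voom and 44 to 157 with 1 library left out. The causes were not tested.

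With the replicate number as a block and only the compared groups, the counts were 519 (86 of the 91 among them) for vehicle 6 h against untreated, 13 for vehicle 2 h against untreated and 207 between the times. The same groups without the block gave 28, 6 and 243. With the block over all libraries the count for the organs was 120. Same-numbered vehicle 6 h and untreated libraries had correlations of 0.06, 0.3 and 0.37 in their deviations from the group means. Between libraries of different numbers the values ran from -0.32 to 0.08, and were -0.3 and -0.32 between replicates 2 and 3. Same-numbered vehicle 2 h and untreated libraries had 0, 0.07 and 0.03, and the libraries of the times 0.05, 0.01 and -0.09. The labels do not say what the numbers mark, so they were not taken to pair the samples. Whether same-numbered vehicle 6 h and untreated libraries share handling was not tested. Untreated replicate 1 correlated best with vehicle 6 h replicate 2 (0.08).

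Of the 39 named called genes 9 passed in every setting: Cish, Clpx, Coq10b, Coq8a, Ndrg1, Pnkd, Slc5a6, Srm and St3gal5. Signs turned in 5 genes that did not pass. With 1 library left out Bhlhe41 ran from -0.62 to 0.82 (-0.01 with voom), Csnk1d from -0.06 to 0.03, Csnk1e from -0.4 to 0.06, Egfr from -0.24 to 0.09 (0.11 with voom) and mt-Nd4l from -2.09 to 0.08. Depth limits genes near 1 CPM, such as Npas2, Pdxp and Snai3, where a library holds few reads.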

Other observations

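Further genes called in vehicle 6 h livers are given here as values; they were chosen after their values were seen. Sec23b, a coat protein of vesicles leaving the endoplasmic reticulum, had 80.1, 90.3 and 54.7 CPM in vehicle 6 h and 45.5, 33.8 and 31 CPM in untreated livers (1.03 ± 0.21, adjusted p = 0.0275). Gmppb, which makes the mannose donor of glycosylation, rose by 1.19 ± 0.25 (adjusted p = 0.0285), and Gfpt1, the first enzyme of the hexosamine pathway, by 0.90 ± 0.21 (adjusted p = 0.0481). Sec22c, Tmed5, Hspa13 and Txndc11 rose by 0.99, 0.79, 0.84 and 0.80. In each of these 7 genes the groups did not overlap.

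Slc37a4, which carries glucose 6-phosphate into the endoplasmic reticulum, had 418, 470 and 291 CPM in vehicle 6 h and 158, 185 and 151 CPM in untreated livers (1.26 ± 0.21, adjusted p = 0.00825). Slc19a1, the reduced folate carrier, rose by 1.10 ± 0.19 (adjusted p = 0.00843), and Gmps, which makes GMP, by 0.68 ± 0.14 (adjusted p = 0.0328). Gldc, of the glycine cleavage system, fell to 58.9, 61 and 82.7 CPM, against 139, 165 and 246 CPM in untreated livers (-1.44 ± 0.20, adjusted p = 0.00149). Mcu, the mitochondrial calcium channel, had a change of -1.15 ± 0.25 (adjusted p = 0.0328), and Ddc, which makes dopamine and serotonin, of -0.91 ± 0.20 (adjusted p = 0.0332). None of the genes in this part was followed with a library left out.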
